A study of Mus musculus with 13 samples.

Results

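Osteoblasts, the cells that make bone, are built up from mesenchymal progenitors by a small set of transcription factors, and 9 of these genes are described here in mouse tail vertebrae with and without bone lesions: Runx2, Sp7, Dlx3, Dlx5, Dlx6, Msx1, Msx2, Twist1 and Twist2. Every probe annotated with any of these symbols was taken. The platform annotation named a probe for 7 of the 9, among 16593 named genes on the array. Those 7 genes had 8 of the 25697 probes, since Dlx5 had a pair of them. Runx2 and Dlx6 had no named probe and are not analysed here.

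RNA was measured on 13 Illumina bead arrays, 1 for each sample, all from 9-month-old mice of the C57BL/6x129Sv/B6 hybrid background. Bone of the tail vertebrae came from wild-type mice (WT, 4 arrays) and from mice heterozygous for Prkaca (Prkaca+/-, 4 arrays). Lesions of the same vertebrae came from Prkar1a+/- mice (3 arrays) and from mice heterozygous for both genes (Prkar1a+/-Prkaca+/-, 2 arrays, called double heterozygous lesions). Prkar1a encodes a regulatory subunit of protein kinase A, the kinase that cyclic AMP activates, and Prkaca encodes a catalytic subunit of it. Every Prkar1a+/- array is a lesion, so the Prkar1a allele and the lesion cannot be told apart. The labels number the samples of a group without saying that each came from its own mouse, and the p-values therefore reflect the spread among these samples alone. In bulk RNA of this kind, more cells of a type and more RNA per cell cannot be told apart.

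As background, Runx2 commits progenitors to the osteoblast fate, and Sp7 (osterix), a zinc finger factor that acts downstream of it, is needed for them to become bone-forming cells. The homeodomain factors Dlx3, Dlx5 and Dlx6 activate osteoblast genes, while Msx1 and Msx2 bind similar sites and can oppose the Dlx proteins. Twist1 and Twist2 are basic helix-loop-helix (bHLH) factors that bind the Runx2 protein and hold back its activity in early progenitors.

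Sp7 rose by far more than the other measured members, Twist1 and Dlx3 rose to 2.41 and 2.99 times their non-lesion level, and Msx1 rose to 1.64 times that level. Twist2 passed as lower in the lesions, but that call ended in most fits without 1 array. Neither lesion group passed for Twist2 on its own (limma adjusted p = 0.191 and 0.134). Dlx5 also passed the test, but its level without a lesion lay at background and the size of its rise is not known. Lesions were compared with bone without lesion as the mean of both lesion groups minus the mean of both other groups, on log2 of the normalised intensity. In that comparison 5 of the 7 measured members rose, 1 fell and Msx2 did not pass the test (limma, adjusted p under 0.05). Many genes moved in these lesions: 25.1% of the 16226 tested probes rose, 26.2% fell and 51.2% moved in either direction. The median difference of the 7 members was 0.71, against -0.02 over all tested probes. Dlx5 entered the test only through lesion arrays and had to differ, so the counts and the median are a description.

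**Figure D1:**
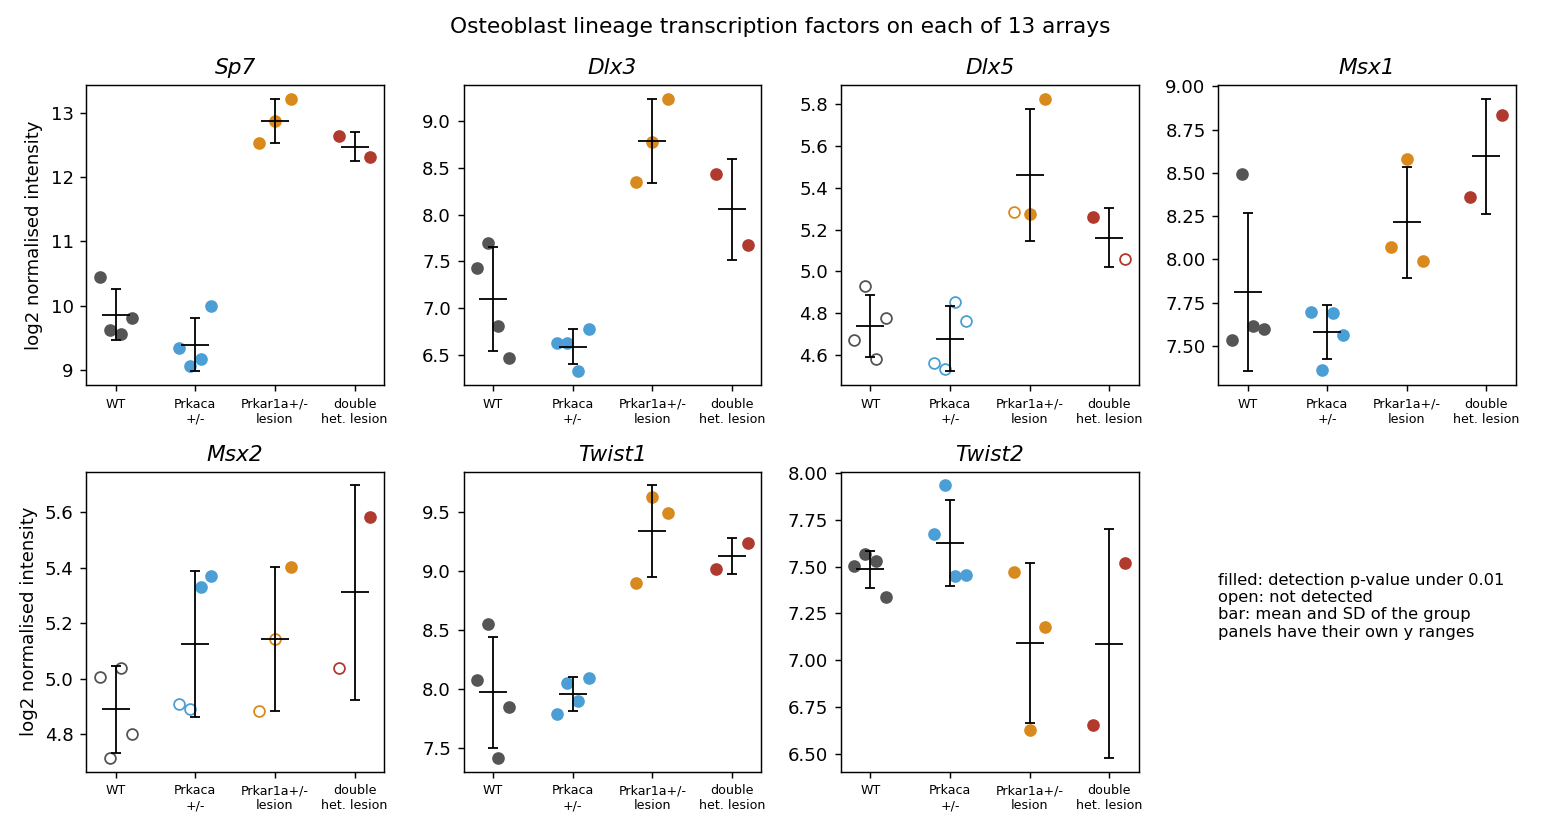
The 7 measured members on each of 13 arrays, as log2 normalised intensity on the vertical axis, with 1 point per array, the 4 groups side by side and the bar giving the group mean and SD. Filled points were detected (detection p-value under 0.01) and open points were not. All lesion arrays lie above all non-lesion arrays for Sp7 and Twist1, the open Dlx5 points without a lesion are values filled near background, and Twist2 is lowest on 1 array of each lesion group.

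Sp7, at position 102356603 to 102367035 of chromosome 15 in GRCm38.p6, stands for the last committed step of the lineage among the measured members. Its deposited intensity on the WT arrays, given here and below from replicate 1 upward, was 1548, 882, 811 and 966. On the Prkaca+/- arrays it was 715, 611, 652 and 1088. It reached 6036, 6901 and 8150 in the Prkar1a+/- lesions and 5764 and 4825 in the double heterozygous lesions. The lowest lesion array thus lay far above the highest array without a lesion, WT replicate 1. WT bone had a log2 mean of 9.86 ± 0.40 (SD, n = 4) and Prkaca+/- bone one of 9.40 ± 0.41 (SD, n = 4). Lesions of Prkar1a+/- mice had a log2 mean of 12.88 ± 0.34 (SD, n = 3), and those of the double heterozygotes one of 12.47 ± 0.22 (SD, n = 2). The lesion means thus lay several SDs above the others. Sp7 was 8.25-fold higher in lesions (95% interval 6.14 to 11.1, log2 3.05 ± 0.20 SE, limma adjusted p = 3.3e-07). All lesion arrays lay above all others for 14.1% of tested probes, and for Sp7 and Twist1 among the 5 members detected on every array.

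The Sp7 rise passed the test in each lesion group separately. It was 8.07-fold in Prkar1a+/- lesions against WT (limma adjusted p = 9.43e-06) and 8.44-fold in double heterozygous lesions against Prkaca+/- bone (limma adjusted p = 4.07e-05). The difference between those log2 effects was 0.06, with a 95% interval from -0.79 to 0.92. Among arrays without a lesion, those with the highest Sp7 of their group also had the highest mean log2 level of 5 osteoblast markers (Bglap, Ibsp, Ifitm5, Col1a1 and Alpl). The marker mean was 10.47 on WT replicate 1 and 9.98 on Prkaca+/- replicate 4. Both arrays also had the highest mean of the osteoclast markers in their group, at 9.02 and 8.42. All 5 osteoblast markers rose in lesions, where their mean ran from 12.9 to 13.7, against 8.98 to 10.5 without a lesion. Markers of other cells moved with them: all 5 osteoclast markers rose, from a mean of 7.73 to 9.02 without a lesion to 11.1 to 11.7 in lesions. Both tested cell cycle markers rose as well, from a mean of 5.64 to 6.65 to one of 8.08 to 9.06. The part of these cell types and of cell division in the Sp7 difference was not tested.

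Dlx3 (chromosome 11, 95120117 to 95125296), a homeodomain activator that is also active in epidermis and hair follicles, rose less than Sp7. Its deposited intensity was 239, 276, 177 and 154 on the WT arrays and 162, 160, 147 and 174 on the Prkaca+/- arrays. It was 396, 490 and 638 in the Prkar1a+/- lesions and 410 and 273 in the double heterozygous lesions. Double heterozygous lesion replicate 2 reached only the level of WT replicate 2, and after normalisation the lesion and non-lesion arrays overlapped at that point. Dlx3 was 2.99-fold higher in lesions (log2 1.58 ± 0.23 SE, limma adjusted p = 0.000123). The rise was 3.23-fold in Prkar1a+/- lesions (limma adjusted p = 0.00105) and 2.77-fold in double heterozygous lesions (limma adjusted p = 0.00829). Without double heterozygous lesion replicate 1 the latter log2 difference was 1.09 and its call ended (limma adjusted p = 0.114). That array also had the highest mean of Krt14 and Trp63, the 2 tested of 4 keratinocyte markers, at 9.11, against 5.33 to 6.34 on the other 4 lesion arrays and 6.12 to 7.72 on arrays without a lesion. This mean need not hold for both markers. In double heterozygous lesions against Prkaca+/- bone Krt14 differed by 2.84 and Trp63 by -0.43 (limma adjusted p = 0.0592 and 0.299). The keratinocyte markers were lowest in the Prkar1a+/- lesions, where Dlx3 was highest, and their part in the Dlx3 values was not tested.

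Dlx5 (chromosome 6, 6877801 to 6882068), which lies beside Dlx6 and activates osteoblast genes, was close to background throughout. The deposited table holds no intensity for it on any of the 8 arrays without a lesion, and gives 102, 102 and 124 in Prkar1a+/- lesions and 99.6 and 93.2 in double heterozygous lesions. It was detected on 3 of 5 lesion arrays and on 0 of 8 others, so its level without a lesion is only bounded. It passed the test on values that were filled near background for all arrays without a lesion (limma adjusted p = 0.00131). No bound on the fold above 1 could be given, so the size of the difference is not reported. Against WT alone the Prkar1a+/- lesions were at least 1.08-fold higher (limma adjusted p = 0.00403). In double heterozygous lesions it did not pass the test (limma adjusted p = 0.0659). The second Dlx5 probe was detected on 0 arrays and was not tested.

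Msx1 (chromosome 5, 37820491 to 37824585), a homeodomain repressor linked to progenitors that have not yet differentiated, rose modestly. Its deposited intensity was 252, 441, 256 and 255 on the WT arrays and 267, 226, 269 and 254 on the Prkaca+/- arrays. It was 337, 440 and 316 in the Prkar1a+/- lesions and 393 and 516 in the double heterozygous lesions. WT replicate 2 stood apart from the other 3 WT arrays and inside the lesion range. That array also had the highest mean of the fibroblast markers (Col3a1, Dcn, Lum, Pdgfra and Fap) among arrays without a lesion, at 12.84, where the others ran from 11.35 to 12.11. It was also the highest of these arrays for the macrophage marker Adgre1, at 11.2, and for the mean of the cell cycle markers, at 6.65. Of the 5 fibroblast markers 4 rose in lesions, where their mean was 13.2 to 13.7. The part of these cell types and of cell division in the Msx1 values was not tested.

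Over all arrays Msx1 was 1.64-fold higher in lesions (log2 0.71 ± 0.18 SE, limma adjusted p = 0.00512). It passed the test in double heterozygous lesions against Prkaca+/- bone, at 2.03-fold (limma adjusted p = 0.0152), and without the second lesion array of that group the log2 difference was 0.79 and no longer passed (limma adjusted p = 0.143). In Prkar1a+/- lesions against WT the log2 difference was 0.40 ± 0.24 (SE, limma adjusted p = 0.194). Without WT replicate 2 that difference was 0.63 and passed (limma adjusted p = 0.0162). The Msx1 effects in the 2 lesion groups did not pass a test of their difference, which was 0.61 with a 95% interval from -0.16 to 1.39.

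Msx2 (chromosome 13, 53466881 to 53472780), the other Msx repressor and a target of bone morphogenetic protein signals, was too dim to compare. Among arrays without a lesion it was detected on 0 of 4 from WT and 2 of 4 from Prkaca+/- mice. In lesions it was detected on 1 of 3 Prkar1a+/- arrays and on 1 of 2 from the double heterozygotes. Where it had a deposited intensity, the value lay between 84.0 and 111. Its log2 difference between lesion and non-lesion was 0.22 (95% interval -0.09 to 0.53, limma adjusted p = 0.217).

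Twist1 and Twist2 are close relatives in sequence and are both known to restrain Runx2, yet their lesion differences had opposite signs, that of Twist2 being far less certain. Twist1 (chromosome 12, 33957671 to 33959831) had a deposited intensity of 342, 456, 231 and 291 in WT and 280, 327, 300 and 338 in Prkaca+/- bone. It was 549, 816 and 744 in the Prkar1a+/- lesions and 573 and 664 in the double heterozygous lesions. All 5 lesion arrays lay above the 8 others, among which WT replicate 2 was again the highest. Twist1 was 2.41-fold higher in lesions (log2 1.27 ± 0.18 SE, limma adjusted p = 0.000129). The rise was 2.58-fold in Prkar1a+/- lesions (limma adjusted p = 0.00105) and 2.25-fold in double heterozygous lesions (limma adjusted p = 0.0089). Without double heterozygous lesion replicate 2 the latter log2 difference was 1.06 and did not pass (limma adjusted p = 0.072).

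Twist2 (chromosome 1, 91801461 to 91848034) had a deposited intensity of 248, 257, 245 and 224 in WT and 263, 309, 237 and 238 in Prkaca+/- bone. It was 245, 165 and 213 in the Prkar1a+/- lesions and 167 and 252 in the double heterozygous lesions. Of the 5 lesion arrays 3 lay below all arrays without a lesion, while replicate 1 of the Prkar1a+/- lesions and replicate 2 of the double heterozygous lesions lay within their range. Twist2 stood at 72.4% of its level without a lesion (log2 -0.47 ± 0.17 SE, limma adjusted p = 0.0376). The call ended when any 1 of 8 of the 13 arrays was left out, and without double heterozygous lesion replicate 1 the difference was -0.25 (limma adjusted p = 0.267). Neither lesion group passed on its own, with log2 differences of -0.39 (limma adjusted p = 0.191) and -0.54 (limma adjusted p = 0.134). The 2 lesion arrays with the lowest Twist2 also had the lowest mean of the adipocyte markers (Adipoq, Plin1, Cidec and Lep), 5.97 and 7.09, against 7.32 to 8.49 on the other lesion arrays. They were lowest among lesions for Mbp too, a marker of Schwann cells, at 9.05 and 10.3. In Prkaca+/- bone, by contrast, replicates 3 and 4 had the highest adipocyte means (9.81 and 10.1) and the lowest Twist2 (both 7.45). In WT bone replicate 4 was lowest in both. All 4 adipocyte markers fell in lesions from 8.80 to 10.1 without a lesion. The part of these cell types in the Twist2 fall was not tested.

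The promoters of this pair are shown because the genes moved apart in the same samples. The sequences are the 250 bases before each RefSeq start in GRCm38.p6, on the gene's own strand, at chr12:33957421-33957670 for Twist1 and chr1:91801211-91801460 for Twist2, both on the plus strand.
Twist1 promoter: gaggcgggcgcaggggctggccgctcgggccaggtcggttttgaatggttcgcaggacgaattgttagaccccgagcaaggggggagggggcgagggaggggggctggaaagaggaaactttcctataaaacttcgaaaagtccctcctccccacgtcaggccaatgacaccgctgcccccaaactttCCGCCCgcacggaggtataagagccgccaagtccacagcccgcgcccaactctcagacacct
Twist2 promoter: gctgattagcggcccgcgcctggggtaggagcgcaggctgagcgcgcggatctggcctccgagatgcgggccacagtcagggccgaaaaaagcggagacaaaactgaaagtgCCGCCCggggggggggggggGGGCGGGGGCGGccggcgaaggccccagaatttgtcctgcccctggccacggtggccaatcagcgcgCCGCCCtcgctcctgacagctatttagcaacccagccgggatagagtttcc
Capitals mark every match, on either strand, to 1 of 5 motifs: TGTGGT for Runx factors, TAATTA for homeodomains, the E-boxes CAGCTG and CATCTG for bHLH factors, and CCGCCC, the GC box core that Sp factors bind. Twist2 held 4 matches to CCGCCC, whose first bases lay 138, 118, 112 and 51 bases before the start, and of which the middle pair abut on the opposite strand. Twist1 held 1, at 62 bases before the start. CCGCCC occurred in 32.7% of 32817 RefSeq windows of the same length. Neither promoter held a match to the other 4 motifs. RefSeq windows were at hand for 5 of the 9 listed genes, namely Runx2, Msx1, Msx2, Twist1 and Twist2. The Msx1 and Msx2 windows each held 1 CCGCCC, at 72 and 160 bases before the start. Msx2 also held TAATTA at 187 bases before the start, a motif in 4.85% of windows, and Runx2 held TGTGGT at 80 bases before the start, a motif in 14.0% of windows. The Runx2 window, at chr17:44814628-44814877 on the minus strand, overlaps the annotated span of the gene, 44495987 to 44814797. It therefore lies before a start inside that span. A match says only that these letters are present.

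**Figure D2:**
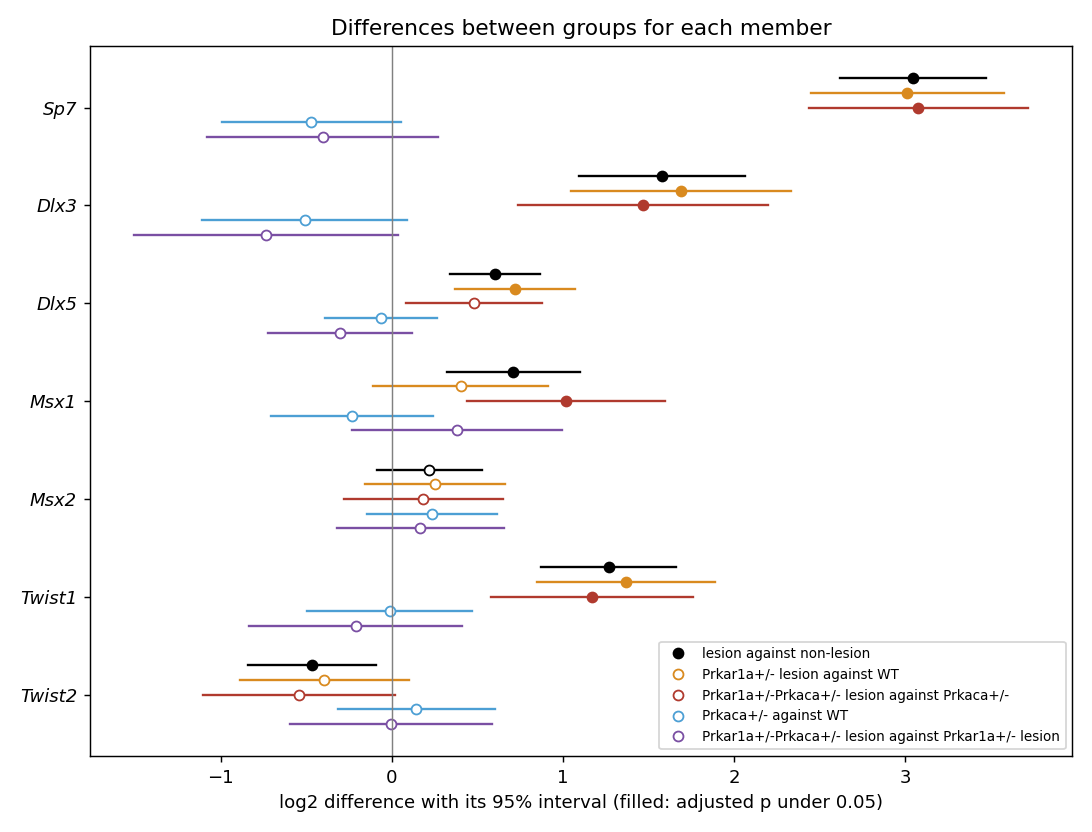
Log2 differences between groups (horizontal axis) for the 7 measured members, with the 95% interval as a line and a filled point where the adjusted p was under 0.05. Sp7, Dlx3 and Twist1 are filled in both lesion comparisons, at 3.01 and 3.08, 1.69 and 1.47, and 1.37 and 1.17, and no member is filled in either comparison of the Prkaca allele. The Dlx5 points rest on values filled near background on arrays without a lesion.

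Each lesion group was also set against bone of its own Prkaca genotype. In Prkar1a+/- lesions against WT 4 of 7 members rose (Sp7, Dlx3, Dlx5 and Twist1) and 0 fell, where 20.0% of tested probes rose, 19.4% fell and 39.3% moved in either direction. In double heterozygous lesions against Prkaca+/- bone 4 of 7 rose (Sp7, Dlx3, Msx1 and Twist1) and 0 fell, where 14.3% of tested probes rose, 13.9% fell and 28.2% moved in either direction. Sp7, Dlx3 and Twist1 passed in both. Dlx5 entered the test only through lesion arrays, so the count that includes it is a description. The difference between both lesion effects passed for 0 members and 0 probes after adjustment in limma. At an unadjusted p under 0.05 it gave 385 probes and 0 members, with a smallest member p of 0.11 for Msx1 in the limma fit.

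The Prkaca allele was tested once in bone without a lesion and once in lesions, to ask whether losing a catalytic allele moved these factors. In Prkaca+/- bone against WT 0 of 7 members and 0 probes passed the adjusted test in limma, and 0 members but 263 probes had an unadjusted p under 0.05. The widest gaps were those of Dlx3, at -0.51 (95% interval -1.11 to 0.09), and Sp7, at -0.47 (95% interval -0.99 to 0.05). The interval of Twist1 ran from -0.50 to 0.47 and that of Twist2 from -0.31 to 0.60. The intervals of Dlx3 and Sp7 hold both no difference and a fall larger than the SD among WT arrays, 0.56 and 0.40. In double heterozygous against Prkar1a+/- lesions 0 members and 0 probes passed in limma, and 0 members but 551 probes had an unadjusted p under 0.05. Dlx3 differed by -0.73 on the log2 scale (95% interval -1.50 to 0.04), while Sp7 differed by -0.40 (95% interval -1.08 to 0.27) and Msx1 by 0.38 (95% interval -0.23 to 0.99).

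Ratios between members were compared too. For the 5 members detected on all 13 arrays (Sp7, Dlx3, Msx1, Twist1 and Twist2), the log2 ratio of each of the 10 pairs was taken within an array and compared between lesion and non-lesion arrays. In 9 of 10 pairs this ratio changed (two-sided exact permutation test over 1287 splits, adjusted over the 10 pairs, smallest possible p 0.000777). The ratio of Sp7 to Twist2 rose by 3.55, that of Sp7 to Msx1 by 2.41, that of Sp7 to Twist1 by 1.80 and that of Sp7 to Dlx3 by 1.43 (each adjusted exact p = 0.0013). Sp7 thus gained on every other member that could be paired. The ratio of Twist1 to Twist2 rose by 1.76, from between -0.12 and 0.98 on arrays without a lesion to between 1.42 and 3.00 in lesions, with no overlap (adjusted exact p = 0.0013). Dlx3 gained on Twist2 by 2.12 (adjusted exact p = 0.0013) and on Msx1 by 0.98 (adjusted exact p = 0.0181), and Msx1 lost to Twist1 by -0.62 (adjusted exact p = 0.0107). The ratio of Dlx3 to Twist1 moved by 0.36 and did not pass (adjusted exact p = 0.158). Such a ratio shows that members changed unequally, and not which of them did. The share of pairs of other genes whose ratio changed was not computed, so the 9 of 10 is no result particular to these members.

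Partners, relatives and opponents of the members were described through a list of 18 genes, of which 16 had a named probe and 11 were tested. In lesions 8 of the 11 rose and 0 fell, where 25.1% of all tested probes rose and 26.2% fell. The median difference of the 11 on the log2 scale was 0.85 (also 0.85 with Dlx1 and Dlx2 at their bounds). Cbfb, the partner subunit that Runx proteins need to bind DNA well, rose by 0.91 ± 0.13 (SE, limma adjusted p = 0.000137), and Runx1 by 0.85. Dlx1, a homeodomain relative, was at least 2.09-fold higher (limma adjusted p = 3.01e-05). Dlx2, named here after its values were seen, was at least 1.66-fold higher (limma adjusted p = 8.13e-05). With the deposited scores Dlx2 was no longer called. Both were detected on 5 of 5 lesion arrays and 0 of 8 others, so, like Dlx5, they entered the test through the lesions. The count of this list is therefore a description. The Id proteins, which tie up the E proteins that Twist factors pair with, rose for Id3 (1.32), Id1 (1.09) and Id2 (0.85), while Id4 differed by 0.27 and did not pass (limma adjusted p = 0.565). The E protein gene Tcf12 rose by 0.46 on 1 probe and stood at -0.62 on another (limma adjusted p = 0.0299), so its direction is uncertain, and by that probe the counts are 7 higher and 1 lower. Sp1 (-0.21) and Tcf4 (0.24) did not pass. Runx3, Dlx4, Msx3, Hand1 and Hand2 were detected on 0 arrays.

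**Figure D3:**
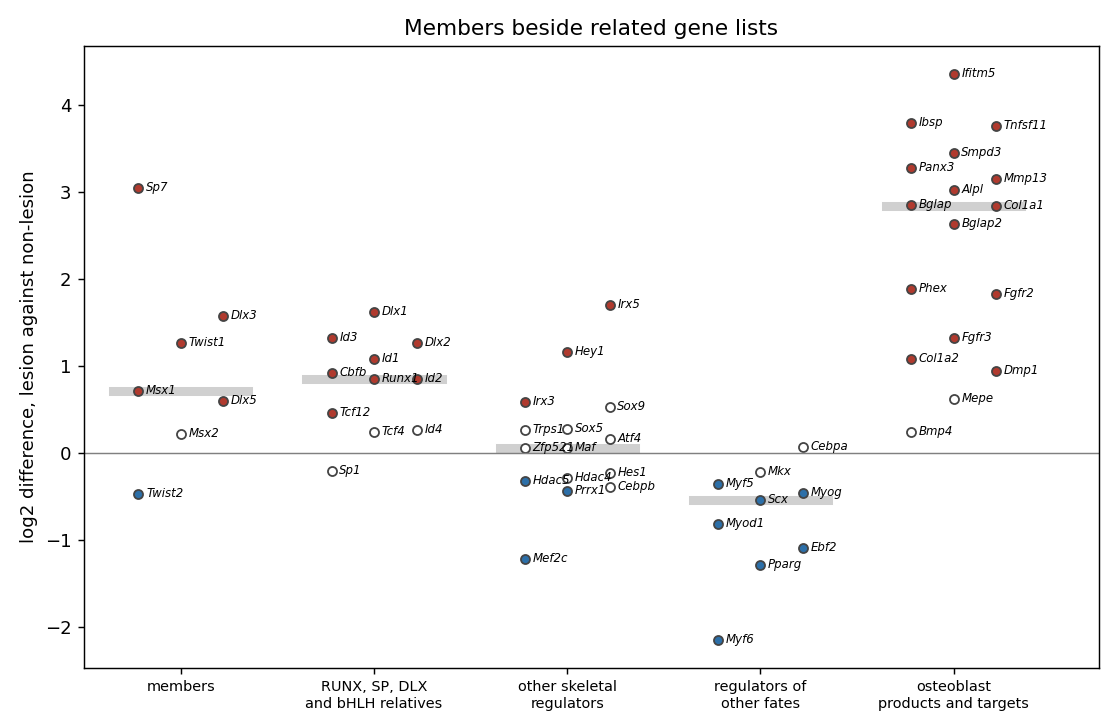
Log2 difference between lesion and non-lesion (vertical axis) for the measured members and 4 lists of related genes, with 1 point per gene, red for higher and blue for lower at an adjusted p under 0.05, open otherwise, and a grey bar at the median. The medians are 0.71 for the members, 0.85 for relatives, 0.06 for other skeletal regulators, -0.54 for regulators of other fates and 2.84 for osteoblast products and targets.

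Of 15 tested other regulators of the skeleton 3 rose and 3 fell, with a median of 0.06. These shares lie near or below the 25.1% and 26.2% of all tested probes that rose and fell. The homeobox genes Irx5 (1.70) and Irx3 (0.58) and the Notch target Hey1 (1.16) rose. Mef2c, a factor of muscle and of cartilage and bone cells, fell by 1.21 on the log2 scale, Prrx1, a limb mesenchyme factor, by 0.44 and the deacetylase gene Hdac5 by 0.33. Hdac5 passed narrowly (limma adjusted p = 0.0442), and its call ended in most fits without 1 array and with the deposited scores. Another Hdac5 probe passed (-0.48, limma adjusted p = 0.00608) and a further probe did not (-0.28, limma adjusted p = 0.0588). Without double heterozygous lesion replicate 1 the calls of Hdac5, Prrx1 and Irx3 ended.

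Of 9 regulators of fat, muscle and tendon fates 7 fell and 0 rose, with a median of -0.54 (also -0.54 with Myf5 at its bound). Over all tested probes 26.2% fell and 25.1% rose. Myf5 was detected on 0 lesion arrays and 2 of the others. It entered the test only through arrays without a lesion, so the count is a description. Myog stood at -0.46 on the probe used and did not pass on another (-0.22, limma adjusted p = 0.112). Myf6, a muscle regulator, fell by 2.14 and Pparg, the main regulator of fat cells, by 1.29. This count rested on few arrays: 3 genes fell without Prkar1a+/- lesion replicate 2 and 2 without double heterozygous lesion replicate 1. Muscle markers fell too, 5 of 7, from a mean of 13.1 to 13.6 without a lesion to 9.72 to 13.1 in lesions, lowest on Prkar1a+/- lesion replicate 2. The adipocyte markers fell 4 of 4, from 8.80 to 10.1 without a lesion to 5.97 to 8.49 in lesions. The part of muscle and fat content in these falls was not tested.

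Among these 4 lists the products and targets of the lineage had the largest median difference. Of 17 tested genes 15 rose and 0 fell, with a median of 2.84, and 15 rose in each lesion comparison. Over all tested probes 25.1% rose in lesions. The share was 20.0% in Prkar1a+/- lesions against WT and 14.3% in double heterozygous lesions against Prkaca+/- bone. Ifitm5, an osteoblast membrane protein, rose by 4.35 (limma adjusted p = 1.32e-07) and Ibsp, a matrix protein whose gene responds to Runx2, Dlx5 and Sp7, by 3.79 (limma adjusted p = 1.32e-07). Dmp1, detected on 4 of 5 lesion arrays and 0 of 8 others, was at least 1.27-fold higher. It entered the test only through the lesions, so the counts of this list are a description. Mepe (0.62) and Bmp4 (0.24) did not pass. The Sp7 difference of 3.05 lay close to this median, and those of the other members lay below it. In Prkaca+/- bone against WT 0 genes of these 4 lists passed in limma. There 0 of all 16226 tested probes passed, so this count does not show that the lists were unchanged. The list medians in that comparison were 0.02 for relatives, -0.02 for other skeletal regulators, 0.05 for regulators of other fates and -0.40 for products and targets.

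The genes with a profile most like each member were found as those with the smallest root mean square difference of centred log2 values over the 13 arrays. Sp7 was matched most closely by Ccn4 (0.22), Fkbp11 (0.28) and Kcnk1 (0.28). Dlx3 was closest to Lxn (0.26), Mad2l1 (0.27) and Skap2 (0.28), and Twist1 to Litaf (0.13), Cox6a1 (0.13) and Snx20 (0.14). For Msx1 the nearest were Lgr5 (0.17), Def6 (0.19) and Rbm43 (0.19), and for Twist2 Abcb10 (0.17), Ccdc3 (0.19) and Ptcd3 (0.20). The measure favours genes that differ little, so distances of different members are not set against each other. No member was among the nearest genes of another.

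**Figure D4:**
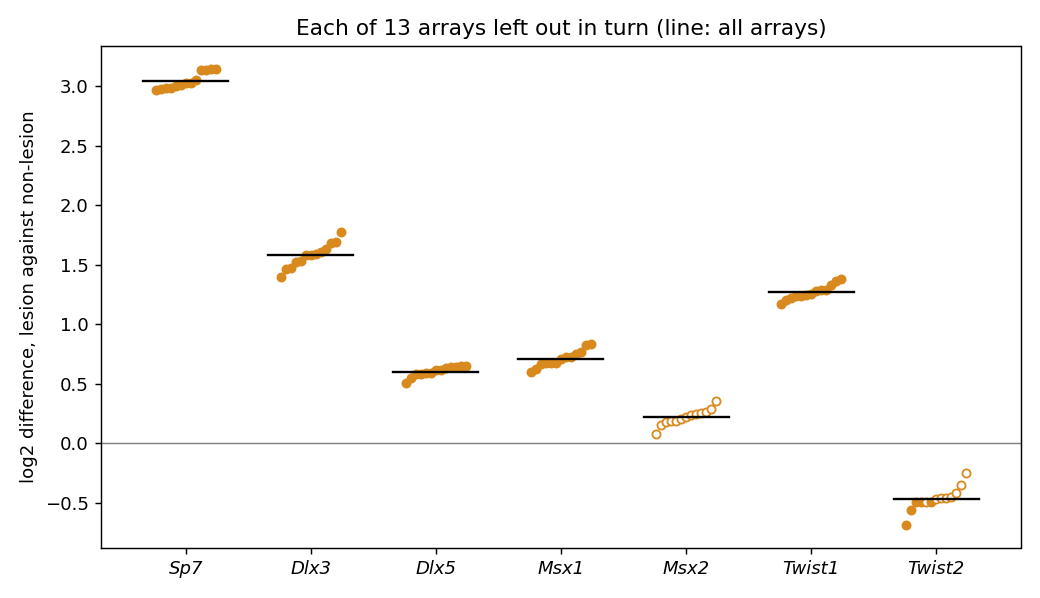
Log2 difference between lesion and non-lesion (vertical axis) for each measured member with each of the 13 arrays left out in turn, 1 point per array left out, filled where the adjusted p stayed under 0.05, and a line for all arrays. Sp7 stays between 2.97 and 3.15 and Twist1 between 1.17 and 1.38, while Twist2 runs from -0.68 to -0.25 and is mostly open.

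Across the series, between 13555 and 14831 probes per array were detected. Prkar1a stood at 37.2% of WT in Prkar1a+/- lesions and 39.3% in double heterozygous lesions, and Prkaca at 54.9% in Prkaca+/- bone, 47.4% in Prkar1a+/- lesions and 24.9% in double heterozygous lesions. The sources used here do not place these probes relative to the targeted part of each gene, which limits this check of the labels. Prkaca was also low in Prkar1a+/- lesions, whose label names no Prkaca allele. Its level against WT therefore does not check the Prkaca label of a lesion. Prkar1a+/- lesion replicate 2 had the lowest muscle and adipocyte marker means of all arrays and the highest T cell marker mean (Cd3e, Cd3g and Cd247, 8.36). Without that array the lesion differences of Sp7, Dlx3, Dlx5, Msx1 and Twist1 still passed, and that of Twist2 did not.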

How the data were processed

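RNA of 13 samples was measured on Illumina bead arrays. Per the file headers, the deposited table lists 25697 probes with a linear signal intensity and a detection p-value on every array, and the authors left the intensity empty where the detection p-value is above 0.1. The other deposited table holds scores of unstated unit, which followed a straight line in the intensity of each array and served only as an alternative.

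For each array the mean and SD of the background came from a line fitted to intensity against normal quantiles of detection p-values between 0.01 and 0.1 (r 0.972 to 0.997), which also filled the empty intensities. Normexp correction, an offset of 16, quantile normalisation and log2 followed. The 16226 probes with a detection p-value under 0.01 on at least 2 arrays entered a limma fit (version 3.58.1, R 4.3.3). The model had 4 group means and 9 residual degrees of freedom, and p-values were adjusted over all probes by the Benjamini-Hochberg method, at 0.05. Of several tested probes of a gene, the one with the highest mean was used. Where a probe was detected on 0 arrays of the dimmer side, the fold is a bound, taken per array against the lowest detected probe's value or the dim probe's own, whichever was higher.

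Members and gene lists were chosen with earlier results of these data known. The text names every member, and from each list the 2 largest rises and falls past the threshold; other genes of a list were named after their values were seen. The fit was tested on simulated data. The number of arrays limits the precision. Promoter sequences and gene positions come from RefSeq tables on GRCm38.p6.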

Additional observations from a re-analysis of the deposited data

Results flagged for a closer look

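In the WT group, Msx1 on replicate 2 had a log2 intensity of 8.49, while the other 3 WT arrays lay between 7.54 and 7.61. The gap to the nearest of them was 0.919 of the group's range and passed Dixon's 95% critical value for a group of 4. The 7 measured members were checked in the WT and Prkaca+/- groups, 14 checks in all, and 1 passed it. At this level chance alone gives a share of about 0.05 of checks.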

How the results depend on the processing

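In lesion against non-lesion, the count of 6 called members stayed between 5 and 6 over the 13 fits that each left out 1 array, and the count of called probes, 8314, between 6857 and 8526. The counts of 4 members ran from 4 to 5 in Prkar1a+/- lesions against WT and from 3 to 5 in double heterozygous lesions against Prkaca+/- bone, and the 3 counts of 0 stayed at 0. A group left with 1 array by such a fit was assumed to vary like the others. In double heterozygous lesions against Prkaca+/- bone the calls of Dlx3, Msx1 and Twist1 did not hold in all of these fits, as given above. In lesion against non-lesion those of Sp7, Dlx3, Dlx5, Msx1 and Twist1 held in all of them. The Dlx5 call rests on values filled near background. Twist2 was no longer called with scaling to the 75th percentile (adjusted p = 0.0585), with no filter on dim probes (0.0549) or with the deposited scores (0.0707), all by limma. Dlx5 could not be fitted with the scores, nor Dlx5 and Msx2 with only probes detected on every array. With the scores Dlx3 in double heterozygous lesions against Prkaca+/- bone was also lost (limma adjusted p = 0.0831). Msx2, not called in any setting, changed sign with the scores, at -0.012 for lesion against non-lesion, -0.013 for Prkar1a+/- lesions and -0.011 for double heterozygous lesions on the score scale. It also changed sign in double heterozygous lesions without replicate 2 of that group (-0.088, the low end of a range up to 0.45). In double heterozygous lesions Dlx5 passed without Prkar1a+/- lesion replicate 3 (limma adjusted p = 0.0377) and Twist2 without double heterozygous lesion replicate 2 (-0.97, limma adjusted p = 0.0444). Of the other fates list 4 genes fell with the scores, and from 2 to 7 over the fits without 1 array. With the scores the list of relatives had 7 higher and 1 lower of 10 that could be fitted, with Dlx2 lost and Sp1 and Tcf4 gained. The causes were not tested. These list counts under other settings were added after seeing the data.

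The labels do not say that replicate numbers pair the samples across groups. Deviations of 16 same-numbered pairs had a median correlation of -0.0124 (range -0.244 to 0.358), against 0.00605 (-0.333 to 0.256) for 46 other pairs. With so few arrays in a group these values can neither show nor exclude pairing. With the replicate number as a block, 7660 probes and 5 members were called in lesion against non-lesion, and Twist2 was the member not called besides Msx2 (-0.53, limma adjusted p = 0.0552). Under the block Hdac5 and Prrx1 were lost and Hdac4 gained among other skeletal regulators. Dim probes such as Dlx5 and Msx2 are limited by their signal over background.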
